A study of Mus musculus with 45 samples.

Results

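The nuclear genome encodes most subunits of the mitochondrial respiratory chain and of ATP synthase, and 81 such genes were followed here along the axis of the mouse embryo at 3 stages shortly after implantation. The stages are named by embryonic day as E5.25, E5.5 and E5.75. Members were chosen by gene symbol alone: names beginning with Ndufa, Ndufb, Ndufc, Ndufs or Ndufv and a number (complex I), Sdha to Sdhd (complex II), Uqcr (complex III), Cox4 to Cox8 (complex IV) and Atp5 (complex V). The tables of the stages held 79 of these genes among 10176 at E5.25, 81 among 13060 at E5.5 and 80 among 13618 at E5.75. By symbol, 37 belong to complex I, 4 to complex II, 8 to complex III, 15 to complex IV and 17 to complex V. The rule places Ndufa4 under complex I, although its protein is now regarded as a complex IV subunit. It also takes in Cox7a2l, a factor in the assembly of supercomplexes, and Atp5s and Atp5sl, which are not subunits of the synthase.

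Freshly recovered embryos were frozen in embedding medium and sectioned. Laser capture microdissection cut out the tissue, and its RNA was sequenced after Smart-seq2, a method that amplifies full-length cDNA from very little RNA. No genotype, treatment or strain separates the groups, which differ by stage, section number and, for a pair of libraries, tissue. E5.25 had 7 sections, numbered 1 to 4 and 6 to 8. E5.5 had 17 labelled libraries, most of them parts A and B of one section, which the table gives as values for 9 section numbers, 1, 2 and 4 to 10. E5.75 had 17 sections with values, 1 to 8, 10 to 12 and 14 to 19, and 2 libraries labelled VE (visceral endoderm, the epithelium that covers the conceptus) from sections 6 and 7. Its sections 9 and 13 are not used here. The labels do not say whether the sections of a stage come from 1 embryo, so the p-values below measure only the spread between these sections, and no label tells which end of the axis section 1 is. Values are FPKM, an abundance divided by transcript length and sequencing depth, on the log2(FPKM + 1) scale, the read depth behind them is unknown, and a change on this scale understates that of a low gene.

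Complexes I and II pass electrons from NADH and succinate to ubiquinone, complex III passes them on to cytochrome c, and complex IV passes them to oxygen. Complexes I, III and IV pump protons across the inner mitochondrial membrane, and complex V uses the gradient to make ATP. The early post-implantation embryo is known for relying strongly on glycolysis while its mitochondria mature. The subunits encoded by mitochondrial DNA were not analysed here.

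Some columns held few genes, and this touches each comparison along the axis. The columns with fewer than 5000 genes at 1 FPKM or more were sections 1 to 4 at E5.25, sections 1, 2, 4 and 5 at E5.5, sections 1 and 2 at E5.75, and both VE libraries, with 1496 to 4954 genes; they are called low-detection below. The other sections held 5303 to 8217 genes and are called well-detected. Rn45s, the ribosomal RNA precursor, made up 0.555% to 69.8% of the summed FPKM of a column. In low-detection columns many members were listed at 0, namely 53, 51, 9 and 33 of 79 in sections 1 to 4 at E5.25, 65, 29, 5 and 7 of 81 in sections 1, 2, 4 and 5 at E5.5, and 48 and 33 of 80 in sections 1 and 2 at E5.75, against 1 to 10 of 80 in the other E5.75 sections. The members that did have a value there varied in level. At E5.5 their median in log2(FPKM + 1) was 7.56 in section 1, where 16 of 81 were above 0 and Cox5b, a subunit of complex IV, was highest at 9.55, but only 2.49, 3.92 and 4.23 in sections 2, 4 and 5. Sections 6 to 10 had medians of 5.93 to 7.18. At E5.25 it was 6.34, 3.98, 5.005 and 5.69 in sections 1 to 4, and 4.49 and 5.07 in sections 1 and 2 at E5.75. In bulk tissue, fewer cells of a type and less RNA per cell cannot be told apart.

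In the well-detected sections the members stood well above the typical gene. Over the E5.75 sections from 3 to 19, the median over the 80 members was 5.06 to 7.11, against 0.781 to 2.13 over the 11016 genes tested there, both in log2(FPKM + 1). At least 1 FPKM was reached in every well-detected section by 74 of 79 members at E5.25 (3 sections), 74 of 81 at E5.5 (5 sections) and 63 of 80 at E5.75 (15 sections). Spearman's rho between the members' median levels at E5.25 and E5.5 was 0.948 across 79 genes, and it was 0.906 across 79 between E5.25 and E5.75 and 0.898 across 80 between E5.5 and E5.75. Genes are not independent replicates and the tables were normalised separately, so these values describe the order only.

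The complexes differed in level. The median over the members of a complex, each taken as its median over the well-detected sections in log2(FPKM + 1), was highest for complexes III and IV and lowest for complex II at all 3 stages. For complex III it was 7.61 at E5.25, 7.41 at E5.5 and 7.53 at E5.75. For complex IV it was 7.65, 7.31 and 6.90 in the same order. Complex V followed at 6.82, 6.58 and 5.93, complex I at 5.78, 5.76 and 5.61, and complex II at 3.54, 3.75 and 3.69. The ranges over the 15 well-detected E5.75 sections overlapped, from 5.73 to 8.49 for complex III, 5.21 to 8.19 for complex IV, 5.19 to 7.67 for complex V and 4.88 to 6.61 for complex I. That of complex II lay lower, from 1.57 to 4.87.

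**Figure D1:**
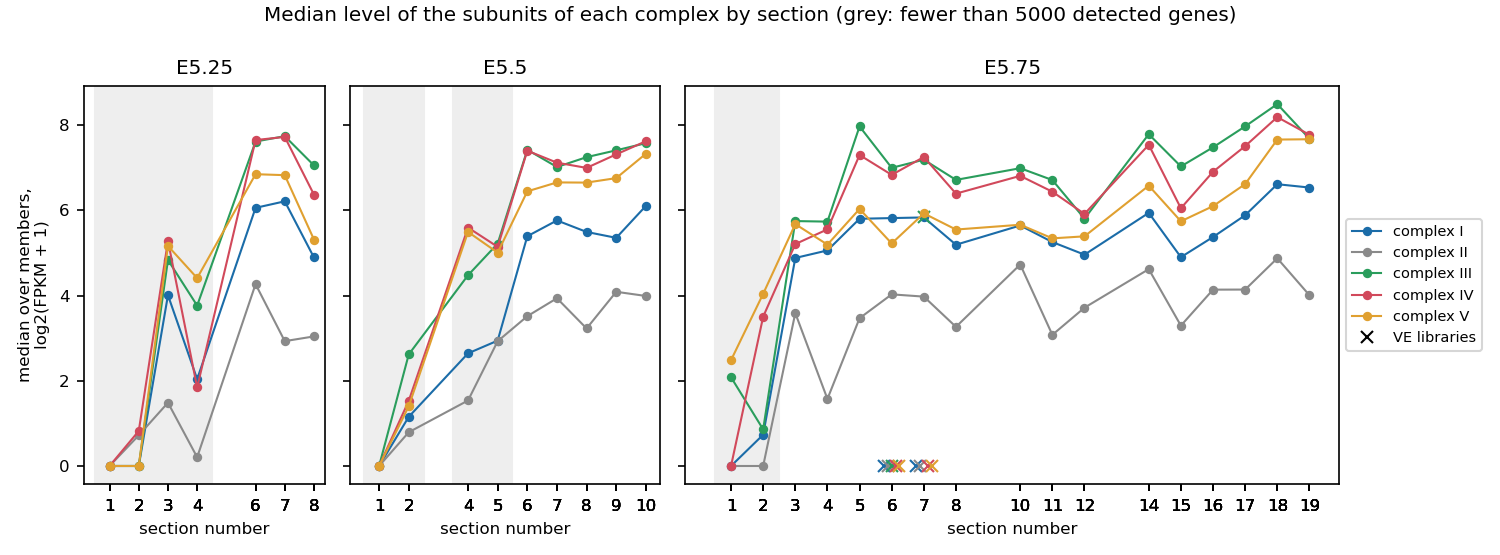
Median level of the members of each complex (y axis, log2(FPKM + 1)) against section number (x axis), with 1 panel per stage. Lines stand for complexes, grey marks sections with fewer than 5000 detected genes, and crosses are the VE libraries; the complex II line lies lowest in most sections, and the lines are low or at 0 in the grey sections.

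In complex V the 5 members of the catalytic head and its central stalk had a lower median level in log2(FPKM + 1) than the other 12, at 4.996 against 7.19 at E5.25, 6.13 against 7.05 at E5.5 and 5.47 against 6.75 at E5.75. Cox7c, an accessory subunit of complex IV, was the highest member at E5.75, with a median level of 10.22 and a range of 9.23 to 10.82 over the 15 well-detected sections. Atp5g3, which encodes the proton-carrying c subunit of complex V, followed at 8.69, Uqcr11 of complex III stood at 8.31, Cox4i1 of complex IV at 8.25 and Ndufa3 of complex I at 8.13. Atp5k at 8.52 and Uqcrh at 8.44 lay between them. Atp5k, Uqcrh and Cox7c are among 8 members for which RefSeq names pseudogenes (Atp5k 4, Uqcrh and Atp5l 2 each, Atp5c1, Cox5b, Cox7c, Ndufa12 and Ndufs5 1 each), so their levels are uncertain to the extent that reads of the copies were counted with them.

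**Figure D2:**
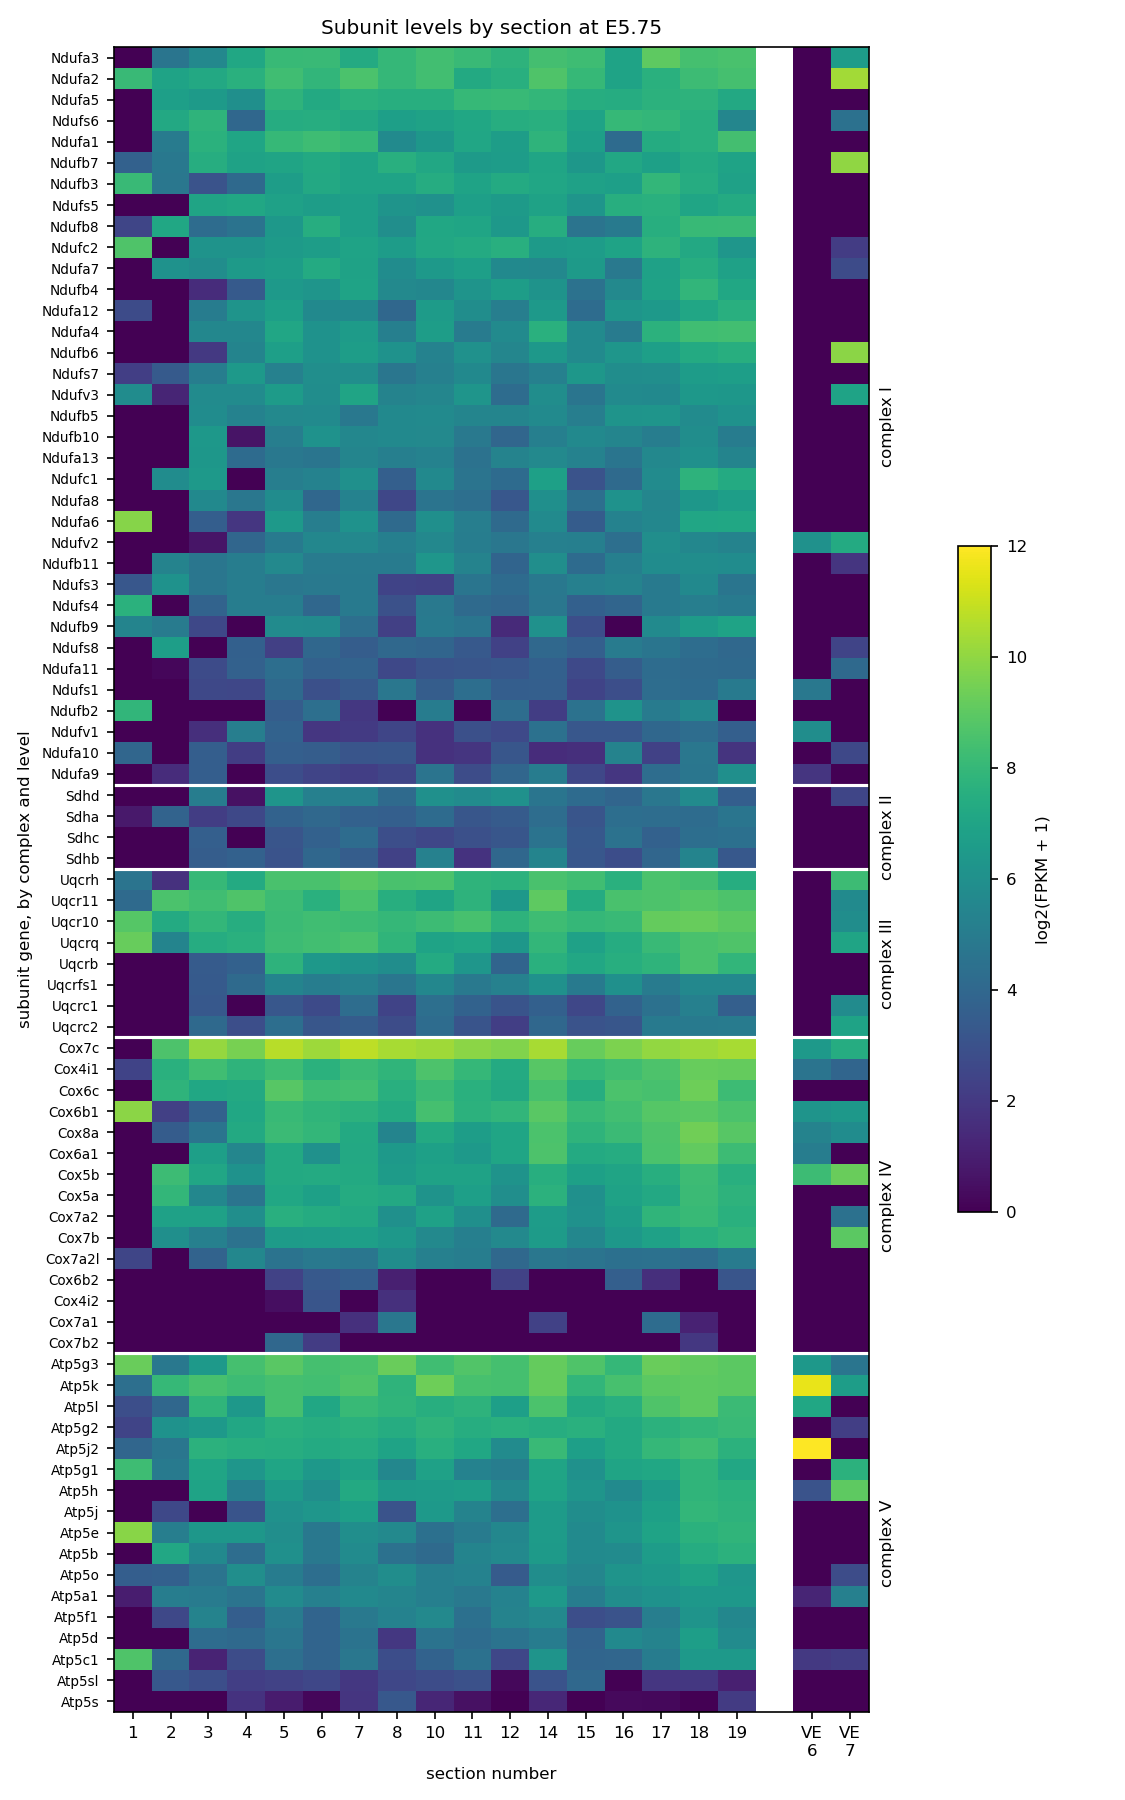
Level of 79 of the 80 members at E5.75 (rows, grouped by complex; colour from 0 to 12 in log2(FPKM + 1)) in 17 sections and the 2 VE libraries (columns). Most members are coloured from section 3 to section 19, and sections 1 and 2 and the VE libraries hold many members at 0.

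Where complex IV has paralogues, the widely expressed form stood higher in the well-detected sections. Cox4i1 was above Cox4i2, whose product replaces it mainly in lung and under low oxygen, in 15 of 15 well-detected E5.75 sections, and Cox4i2 was listed at 0 in 12 of them with a highest level of 3.15. Cox6b1 was above the testis form Cox6b2 in 15 of 15, with Cox6b2 listed at 0 in 7 and at most at 3.64. Cox7a2 was above the muscle form Cox7a1 in 15 of 15, with Cox7a1 listed at 0 in 10 and at most at 4.74. The same pairs had the same order in all 3 well-detected sections at E5.25 and in all 5 at E5.5. Cox7a2l ranged from 3.81 to 5.87 at E5.75. Cox6a2, Cox8b and Cox8c were not analysed here, and Ndufa4l2, a relative of Ndufa4, was above 0 in 1 of 9 E5.5 sections, at 1.86.

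The 3 genes for the c subunit of complex V, Atp5g1, Atp5g2 and Atp5g3, encode the same mature protein with different import signals. Atp5g3 was the highest of them in every well-detected section at E5.25 and E5.5, and it exceeded Atp5g1 in 14 of 15 and Atp5g2 in 14 of 15 at E5.75. The order of the other two differed between the stages. Atp5g2 was below Atp5g1 in all 3 well-detected E5.25 sections, above it in 2 of 5 at E5.5, and above it in 14 of 15 at E5.75. No test was made across stages, since each table was normalised on its own.

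Promoters of respiratory genes are known for sites of NRF1, of ETS family factors such as GABPA, and of YY1, and these motifs were sought in the RefSeq promoters of the members (build GRCm38). Windows covered 250 bases before to 50 bases from the start, and 68 members matched with 74 windows, 3 of them by an older symbol. Both strands were searched. The NRF1 letters, GCGCA followed by any base and GCGC, were in 18 of 74 windows, or 24.32%, against 4.603% of all 32851 windows of that length. CCGGAAG (ETS) was in 16, or 21.62% against 8.858%, and AANATGGC (YY1) was in 19, or 25.68% against 6.052%. At least 1 of the 3 was in 46 windows, or 62.16% against 17.45%. By complex, that was 22 of 34 windows for complex I, 3 of 3 for complex II, 3 of 5 for complex III, 4 of 12 for complex IV and 14 of 20 for complex V. A match describes letters and not a bound site. The windows compared against were all promoters and were not matched for base content. Of the 74 member windows, 62 ended near the start of an annotated transcript of that gene (GENCODE vM21).

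The 120 bases before the start of 1 gene of each complex that held a match are shown so that the motifs can be compared, with Cox7a1, the muscle form of a complex IV subunit, as a member without one. Capitals mark the NRF1 and ETS letters on either strand. Ndufs5 lies at chr4:123718187-123718306, Sdhd at chr9:50603850-50603969, Uqcr11 at chr10:80406822-80406941, Cox6a1 at chr5:115348959-115349078 and Atp5e at chr2:174464102-174464221, all on the minus strand, and Cox7a1 at chr7:30184051-30184170 on the plus strand. Of these stretches 0 to 27 bases overlap an annotated exon of GENCODE vM21.
Ndufs5: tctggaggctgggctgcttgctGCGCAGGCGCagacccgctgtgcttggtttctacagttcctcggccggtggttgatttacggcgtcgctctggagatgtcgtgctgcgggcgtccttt
Sdhd: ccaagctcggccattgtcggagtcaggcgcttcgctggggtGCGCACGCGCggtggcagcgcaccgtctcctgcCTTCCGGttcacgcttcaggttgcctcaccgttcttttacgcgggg
Uqcr11: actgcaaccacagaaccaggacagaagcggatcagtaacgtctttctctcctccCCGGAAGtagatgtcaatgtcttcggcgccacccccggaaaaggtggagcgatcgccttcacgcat
Cox6a1: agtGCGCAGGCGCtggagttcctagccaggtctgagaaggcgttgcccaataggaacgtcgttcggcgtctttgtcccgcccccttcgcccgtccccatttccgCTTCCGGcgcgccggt
Atp5e: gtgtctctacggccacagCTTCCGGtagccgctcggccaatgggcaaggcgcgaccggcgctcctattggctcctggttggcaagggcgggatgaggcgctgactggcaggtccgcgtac
Cox7a1: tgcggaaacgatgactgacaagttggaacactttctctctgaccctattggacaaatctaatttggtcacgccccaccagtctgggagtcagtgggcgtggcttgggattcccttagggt

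Cox6a1 held the NRF1 letters starting 117 bases before the start and the ETS letters 16 bases before it on the opposite strand. Sdhd held both as well, 79 and 46 bases before the start. Ndufs5 held the NRF1 letters at 98 bases, and Uqcr11 and Atp5e held the ETS letters at 66 and 102 bases. None of the 3 motifs was found in the 120 bases of Cox7a1.

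Along the E5.25 axis, 4 members rose with section number and none fell. Levels were fitted as a line in section number with limma over all genes that reached 1 FPKM in 2 or more columns, so a change is the fitted log2 difference from the lowest to the highest number, and p-values were adjusted by the Benjamini-Hochberg method over all genes tested, with a threshold of 0.05. Of 7148 genes, 0.378% rose and 0.028% fell by this test, and 4 of the 76 members tested rose. Cox8a, an accessory subunit of complex IV, was listed at 0 in sections 1 and 2, at 5.38 and 5.65 in sections 3 and 4, and at 8.14, 7.67 and 7.78 in sections 6 to 8. Its fitted change was 8.42 ± 1.80 (standard error) with a limma adjusted p of 0.0442. Uqcr11 had the same course, at 0, 0, 6.33, 7.22, 8.47, 8.83 and 7.91, with a change of 8.75 ± 1.87 and an adjusted p of 0.0442. Both genes were at 0 in the same pair of sections and high in the last 3.

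Ndufb9 and Ndufb8, accessory subunits of the membrane arm of complex I, were the other members that passed at E5.25. Ndufb9 had 0 in each of sections 1 to 4 and 6.78, 6.76 and 5.56 in sections 6 to 8 (change 8.04 ± 1.75, limma adjusted p 0.0442). It entered the test only through sections 6 to 8, so a rise was its only possible direction. Ndufb8 was at 0, 0, 2.78 and 0 and then at 7.41, 7.75 and 6.07 (change 8.27 ± 1.87, adjusted p 0.0459). A fitted change that starts at 0 depends on the constant added to the FPKM and bounds no fold change. Complexes II and V had no member past the threshold. Sdhb, the iron-sulfur subunit of complex II, had 4.07 ± 1.46 with a limma adjusted p of 0.0711. Like Ndufb9, Sdhb was listed at 0 in each of sections 1 to 4 and entered only through sections 6 to 8, so it could only rise.

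Most E5.25 members pointed the same way without passing. At an unadjusted p under 0.05, 47 of 76 members stood out, or 61.8%, as did 2493 of all 7148 genes, or 34.9%, and the members' median change was 4.19 against 1.45 over all genes tested. The adjusted counts rested on single sections. Without section 6 or without section 7, 0 members rose, against 0.0161% and 0.0768% of all genes. Without section 1, 2 rose, against 0.278% of genes, and without section 8, 17 rose, against 1.34%. Without section 2, 3 or 4, the count was 20, 28 or 30, against 2.35%, 5.64% and 10.4% of genes. With sections 6 to 8 alone, 0 of 76 members passed limma's test, as did 0 of 5889 genes, 17 members (22.4%) and 225 genes (3.82%) had an unadjusted p under 0.05, and the median change of the members was -0.76 against -0.13 over all genes. Cox7c was high even in sections that held few genes, at 8.91, 7.77, 9.46 and 11.64 in sections 1 to 4 and 9.66, 10.60 and 9.07 in sections 6 to 8, with a change of 1.16 ± 0.97 and a limma adjusted p of 0.395. Its values in the 2 sets of sections overlapped.

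Markers of some tissues moved with the same sections at E5.25. Extraembryonic ectoderm markers summed to 0 to 10.9 FPKM in sections 1 to 4 and 154 to 160 FPKM in sections 6 to 8. Markers of the ectoplacental cone and trophoblast summed to 6.25 to 190 FPKM and 430 to 588 FPKM in the same ranges. By limma's test 0 of 11 and 1 of 6 of these markers rose. Epiblast markers summed to 109 to 233 FPKM in sections 1 to 4 and 46.6 to 89.8 FPKM in sections 6 to 8. Those of visceral endoderm overlapped, at 28.2 to 354 and 41.0 to 147 FPKM. Of these, 0 of 9 and 0 of 13 passed, as did 0 of 2 decidual and 0 of 2 blood markers. The part of these tissues in the members' rise was not tested.

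Along the E5.5 axis, 62 of the 79 members tested rose and 1 fell. Over all 8251 genes, 28.3% rose and 2.61% fell. The members that rose were 30 of 36 in complex I, 3 of 4 in complex II, 8 of 8 in complex III, 9 of 14 in complex IV and 12 of 17 in complex V. The median change of the members was 5.40 against 1.22 over all genes tested.

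Ndufb8 and Cox5a had the smallest adjusted p at E5.5. Ndufb8 was listed at 0 in sections 1 and 2, at 2.49 and 3.92 in sections 4 and 5, and at 7.23, 7.31, 6.57, 7.77 and 7.99 in sections 6 to 10 (change 9.10 ± 1.11, limma adjusted p 0.000449). Cox5a, a complex IV subunit next to the catalytic core, was at 0, 0, 1.33 and 1.74 and then at 5.71, 6.23, 6.09, 7.29 and 7.33 (change 8.71 ± 1.06, adjusted p 0.000449). In both genes every value of sections 6 to 10 lay above every value of sections 1 to 5, which are the low-detection ones. Uqcrh, the hinge protein of complex III, had a change of 7.97 ± 1.33 (adjusted p 0.000982) and was already at 5.16 and 6.63 in sections 4 and 5. Sdhd, a membrane anchor of complex II, had 4.96 ± 0.92 (adjusted p 0.00164), and Atp5g1 had 7.56 ± 1.05 (adjusted p 0.000547). Sdha, the flavoprotein of complex II that oxidises succinate, did not pass at 2.51 ± 0.98 (adjusted p 0.0610).

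Cox7b2, a tissue-restricted relative of Cox7b, was the member that fell at E5.5, by 6.32 ± 1.61 on the log2 scale (limma adjusted p 0.00864). It was at 9.01, 1.51 and 2.42 in sections 1, 2 and 4 and listed at 0 in sections 5 to 10, so its course rested mainly on section 1. In section 1 Rn45s made up 69.8% of the summed FPKM. That section also held 979 FPKM of visceral endoderm, 386 FPKM of blood and 142 FPKM of decidual markers, whose part in the fall was not tested. Cox7b2 entered the test only through sections 1, 2 and 4, so a fall was its only possible direction. Cox4i1 was at 9.21, 7.99, 9.49 and 7.72 in the low-detection sections and between 8.76 and 9.35 in the others, with a change of 0.32 ± 0.71 (adjusted p 0.741). It was high in both sets of sections.

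Among the 5 well-detected E5.5 sections no gene at all passed the threshold, so that fit cannot show whether the members' rise holds there. In sections 6 to 10 alone, limma called 0 of 78 members and 0 of 7136 genes, 15 members (19.2%) and 354 genes (4.96%) had an unadjusted p under 0.05, and the median change was 0.54 against 0.11 over all genes. With only sections 1 and 2 left out, a limit added after the data were seen (4500 genes), 29 of 78 members rose against 3.71% of 7755 genes, and the median change was 2.25 against 0.70. With detected genes as a covariate, limma called 0 of 79 members and 0 of 8251 genes, and 12 members (15.2%) and 411 genes (4.98%) had an unadjusted p under 0.05. Section number and detected genes were correlated across the 9 sections (r 0.898), so position and detection cannot be told apart here. Some tissue markers moved with the same sections. Extraembryonic ectoderm markers summed to 0.854 to 84.0 FPKM in the low-detection sections and 105 to 127 FPKM in sections 6 to 10, and ectoplacental cone and trophoblast markers to 9.66 to 57.1 and 292 to 734 FPKM. With all sections in the fit 6 of 11 and 5 of 10 of them rose, and 0 did in sections 6 to 10 alone. The sums of other lists overlapped, at 48.9 to 239 and 32.8 to 67.1 FPKM for epiblast and 28.5 to 979 and 85.8 to 460 FPKM for visceral endoderm. With all sections 0 of 10 epiblast markers passed. Of visceral endoderm markers 1 of 17 rose and 1 fell, of decidual markers 2 of 6 rose and 1 fell, and of blood markers 1 of 2 rose and 1 fell. The part of these tissues in the members' rise was not tested.

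Along the E5.75 axis, 33 of the 80 members rose and 0 fell, and 18.9% of all 11149 genes rose and 2.07% fell. The members that rose were 15 of 36 in complex I, 2 of 4 in complex II, 4 of 8 in complex III, 4 of 15 in complex IV and 8 of 17 in complex V. The median change of the members was 2.38 against 0.80 over all genes tested. Rescaling each column to a common sum without Rn45s left 19 members that rose, against 12.9% of all genes, with medians of 2.02 for the members and 0.66 for all genes. Quantile normalisation left 15, against 7.58% of all genes, with medians of 1.78 and 0.16. Leaving out 1 section at a time gave 21 to 39 members, against 13% to 20.5% of all genes. It gave 21 without section 1, where 13.2% of genes rose, and 21 without section 18, where 14.4% did.

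Members of all 5 complexes were among those that rose at E5.75. In complex I, Ndufb4, an accessory subunit of the membrane arm, was listed at 0 in sections 1 and 2, between 1.54 and 6.96 in sections 3 to 8, between 4.54 and 6.70 in sections 10 to 16, and at 6.93, 7.88 and 7.13 in sections 17 to 19 (change 5.34 ± 1.15, limma adjusted p 0.00247). Its values in sections 3 to 8 and in the later ones overlapped. Ndufb6 changed by 5.04 ± 1.11 (adjusted p 0.00310) and Ndufa4, counted in complex I only by its symbol, by 4.85 ± 1.19 (adjusted p 0.00661). In complex II, Sdhc, a membrane anchor, changed by 3.33 ± 0.85 (adjusted p 0.00795) and Sdha by 1.94 ± 0.66 (adjusted p 0.0379), whereas Sdhb had 2.50 ± 0.97 (adjusted p 0.0662) and did not pass.

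In complex III, Uqcrb, a small ubiquinone-binding subunit, had the smallest p of the members. It was at 0 in sections 1 and 2, at 3.43 and 3.71 in sections 3 and 4, between 5.90 and 7.74 in sections 5 to 8, between 3.86 and 7.63 in sections 10 to 16, and at 7.80, 8.55 and 7.89 in sections 17 to 19 (change 6.12 ± 1.15, limma adjusted p 0.000801). Section 12, at 3.86, was low and the last 3 sections were its highest. Uqcrfs1, the Rieske iron-sulfur protein, changed by 3.81 ± 0.94 (adjusted p 0.00690) and Uqcrc1, a core protein, by 3.35 ± 0.86 (adjusted p 0.00887).

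In complex IV, Cox6a1, an accessory subunit, was at 0 in sections 1 and 2. It was at 6.76, 5.501, 7.30, 6.09, 7.25 and 6.43 in sections 3 to 8. Sections 10 to 12 had 6.81, 6.44 and 7.05, and sections 14 to 19 had 8.64, 7.35, 7.44, 8.59, 9.11 and 8.22. All 6 values from section 14 on lay above those of sections 3 to 12, and the change was 5.80 ± 1.17 (limma adjusted p 0.00139). It passed in 26 of the 27 alternatives run for it, which reuse the same sections and include leaving out 1 at a time. The exception was the fit over all sections with detected genes as a covariate (limma adjusted p 0.519). Cox8a followed a similar course, from 4.63 in section 3 to 9.41 in section 18 (change 5.26 ± 1.07, adjusted p 0.00155), but its values in sections 5 and 6, at 8.17 and 7.97, overlapped the 7.82 and 8.18 of sections 15 and 16. Cox7c did not pass, at 3.04 ± 1.45 (adjusted p 0.135).

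In complex V, Atp5j, a subunit of the peripheral stalk also called coupling factor 6, was at 0 in section 1, 2.61 in section 2, 0 in section 3 and 3.10 in section 4. It was at 6.09, 6.32, 6.80 and 3.05 in sections 5 to 8, between 4.38 and 6.61 in sections 10 to 16, and at 6.82, 7.96 and 7.76 in sections 17 to 19 (change 5.66 ± 1.09, limma adjusted p 0.000968). Sections 3, 4 and 8 were low and the last 3 were the highest. Atp5d, in the central stalk, changed by 4.11 ± 0.91 (adjusted p 0.00329).

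**Figure D3:**
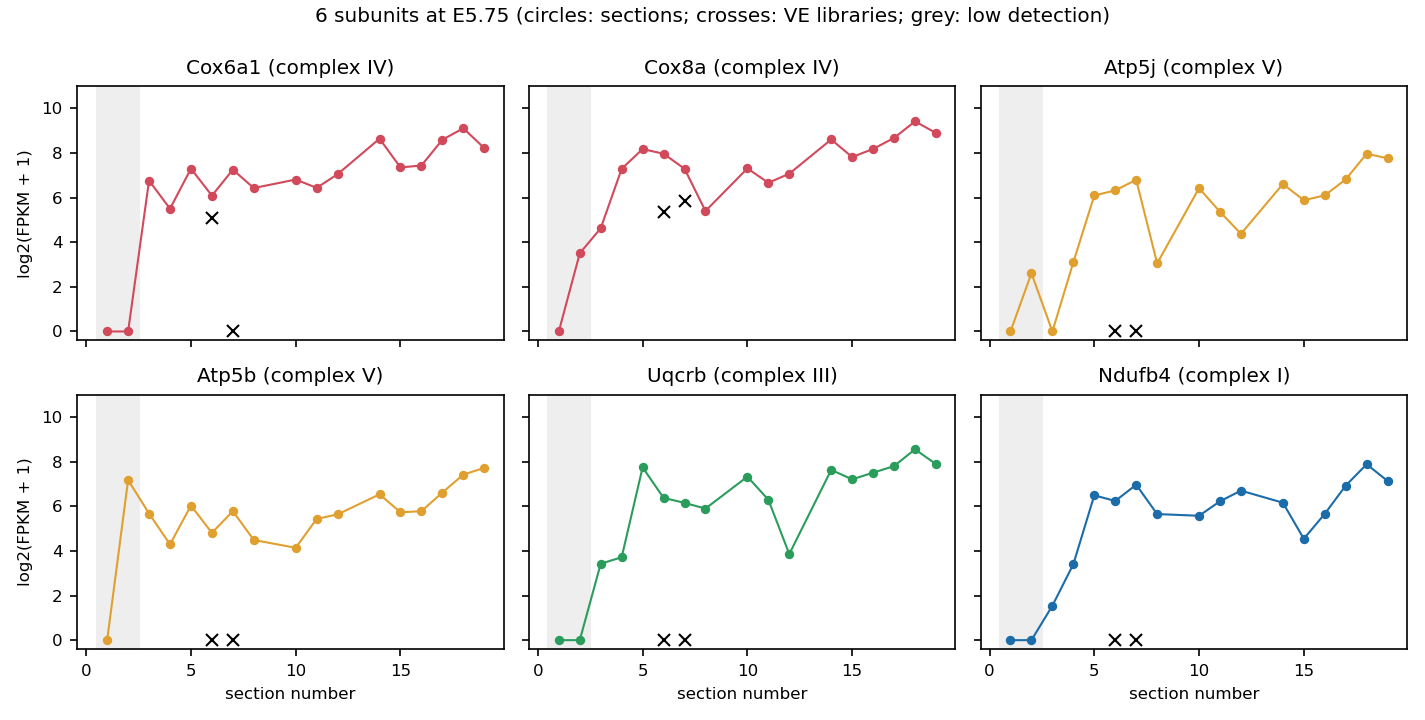
Levels of Cox6a1, Cox8a, Atp5j, Atp5b, Uqcrb and Ndufb4 at E5.75 (y axis, log2(FPKM + 1)) against section number (x axis); each point is 1 section and crosses are the VE libraries. Section 18 or 19 holds the highest section value of each gene, and sections 1 and 2 are at 0 for Cox6a1, Uqcrb and Ndufb4.

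Without the low-detection sections 1 and 2, 12 of 80 members rose at E5.75, against 9.38% of 11016 genes, and 0 fell, against 3.4%. The median change was 0.84 against 0.43 over all genes tested. They were Ndufb3, Ndufb4 and Ndufb6 in complex I, Uqcrb and Uqcr10 in complex III, Cox6a1, Cox6b1 and Cox8a in complex IV, and Atp5b, Atp5c1, Atp5d and Atp5j in complex V. Complex II had none. Of these, 8 were also among the 33, and Cox6b1, Atp5c1, Ndufb3 and Uqcr10 passed only without sections 1 and 2; they were high in section 1, at 9.91, 8.68, 8.14 and 8.84.

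The changes over sections 3 to 19 were smaller. Cox6a1 rose by 2.35 ± 0.48 (limma adjusted p 0.00269), against 5.80 with sections 1 and 2. Atp5j rose by 4.17 ± 1.05 (adjusted p 0.0114), Uqcrb by 3.26 ± 0.83 (adjusted p 0.0123) and Ndufb4 by 2.75 ± 0.90 (adjusted p 0.0463). Atp5b, which encodes the catalytic beta subunit of complex V, rose by 2.16 ± 0.57 (adjusted p 0.0156). It was at 0 in section 1, 7.17 in section 2, between 4.29 and 6.03 in sections 3 to 8, between 4.14 and 6.53 in sections 10 to 16, and at 6.61, 7.42 and 7.72 in sections 17 to 19.

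**Figure D4:**
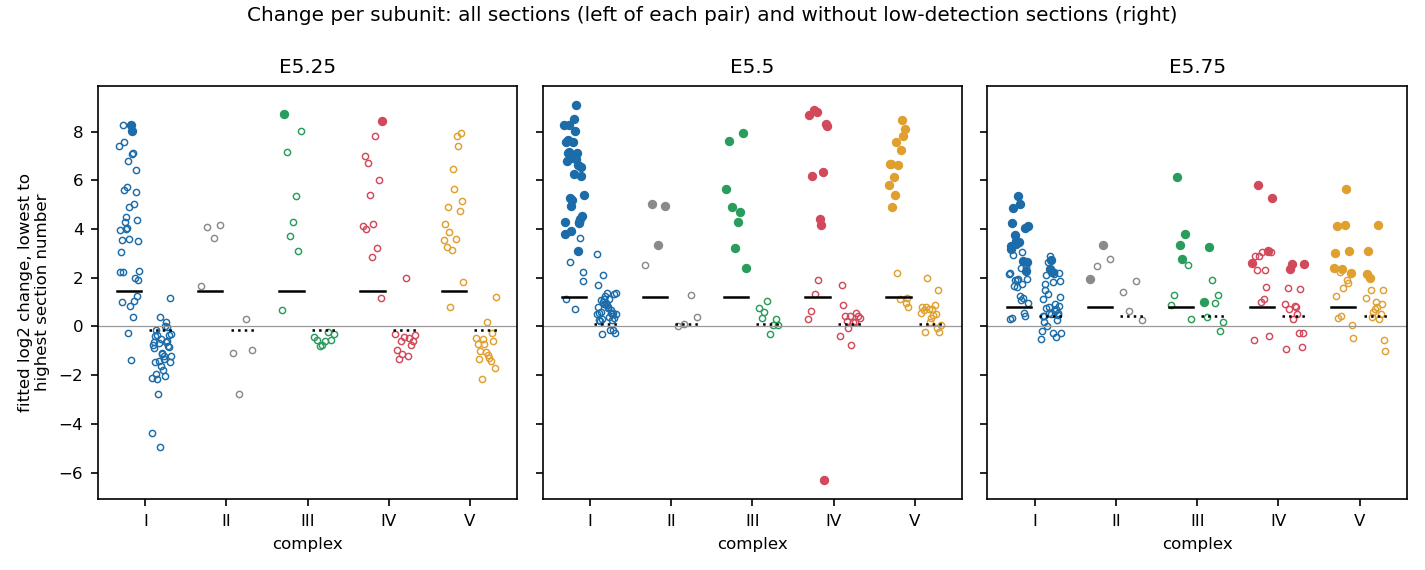
Fitted change of each member from the lowest to the highest section (log2 scale) by complex and stage, with all sections on the left and without low-detection sections on the right. Filled points passed the adjusted threshold, open points did not, and bars give the median of all genes tested; filled points number 4, 63 and 33 on the left and 0, 0 and 12 on the right for E5.25, E5.5 and E5.75.

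With detected genes as a covariate, limma called 0 of 80 members at E5.75, and 3.63% of all genes still rose. At an unadjusted p under 0.05 there were 7 members (8.75%) and 2048 of 11149 genes (18.4%). The members' median change was then 0.31 against 0.14 over all genes. When sections 1 and 2 were left out as well, 1 member rose against 3.78% of all genes, namely Cox6a1 with 2.08 ± 0.60 and a limma adjusted p of 0.0422. Section number and detected genes were correlated, with r at 0.712 over 17 sections and 0.582 without sections 1 and 2.

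Sections 10 to 19 were then set against sections 3 to 8, the ranges that hold extraembryonic and embryonic markers respectively. Limma called 0 of 80 members, against 7% of 11016 genes higher and 3.73% lower in sections 10 to 19, and 16 members (20%) and 2800 genes (25.4%) had an unadjusted p under 0.05. The members' median difference was 0.40 against 0.28 over all genes tested. Cox6b1 had a difference of 1.44 ± 0.47 (adjusted p 0.0535), Cox6a1 1.18 ± 0.39 (adjusted p 0.0542) and Atp5j 2.14 ± 0.79 (adjusted p 0.0886). Leaving out 1 section at a time gave 0 to 3 members higher in sections 10 to 19, against 5.45% to 7.58% of all genes, with 3 without section 5, 2 without section 3, 6, 7, 11 or 12, and 1 without section 10, 15 or 16.

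The high end of the member profiles lay in the last sections. Over sections 3 to 19, 24 of 80 members had their highest level in section 18 and 19 in section 19, which together is 53.75% of the members. Of the 11016 genes tested, 2211, or 20.07%, had their highest level in section 18 or 19. The summed FPKM of all genes was also largest there, at 285460 and 276367. It was 186565 to 260995 in sections 3 to 17, and its part in the peaks was not tested. Section 17 was the highest for 7 members and section 14 for 6. The summed FPKM of the members, as a share of the summed FPKM of all genes other than Rn45s, was 5.15%, 5.71% and 5.01% in sections 17 to 19 and 5.44% in section 14. It was between 3.03% and 5.02% in sections 3 to 8, so these ranges overlapped at their edges, and it was 3.19% in section 12 and 3.61% in section 15.

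Complexes I and IV made up most of that sum. Over sections 3 to 19 complex I held 27.2% to 35.8% of the members' summed FPKM, complex IV 29.0% to 35.5%, complex V 17.5% to 24.7%, complex III 10.4% to 17.2% and complex II 0.308% to 1.59%. The share of Rn45s moved against the member share: across the 15 sections Pearson's r between them was -0.756 and Spearman's rho -0.793, and r was -0.713 without the 2 sections farthest from the median of Rn45s. Rn45s was 3.24% and 2.88% of the summed FPKM in sections 18 and 19, 16.2% in section 8 and 14.8% in section 12. Its part in the result was not tested. The number of detected genes had an r of 0.514 and a rho of 0.429 with the member share, and an r of 0.308 without the 2 sections farthest from the median.

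**Figure D5:**
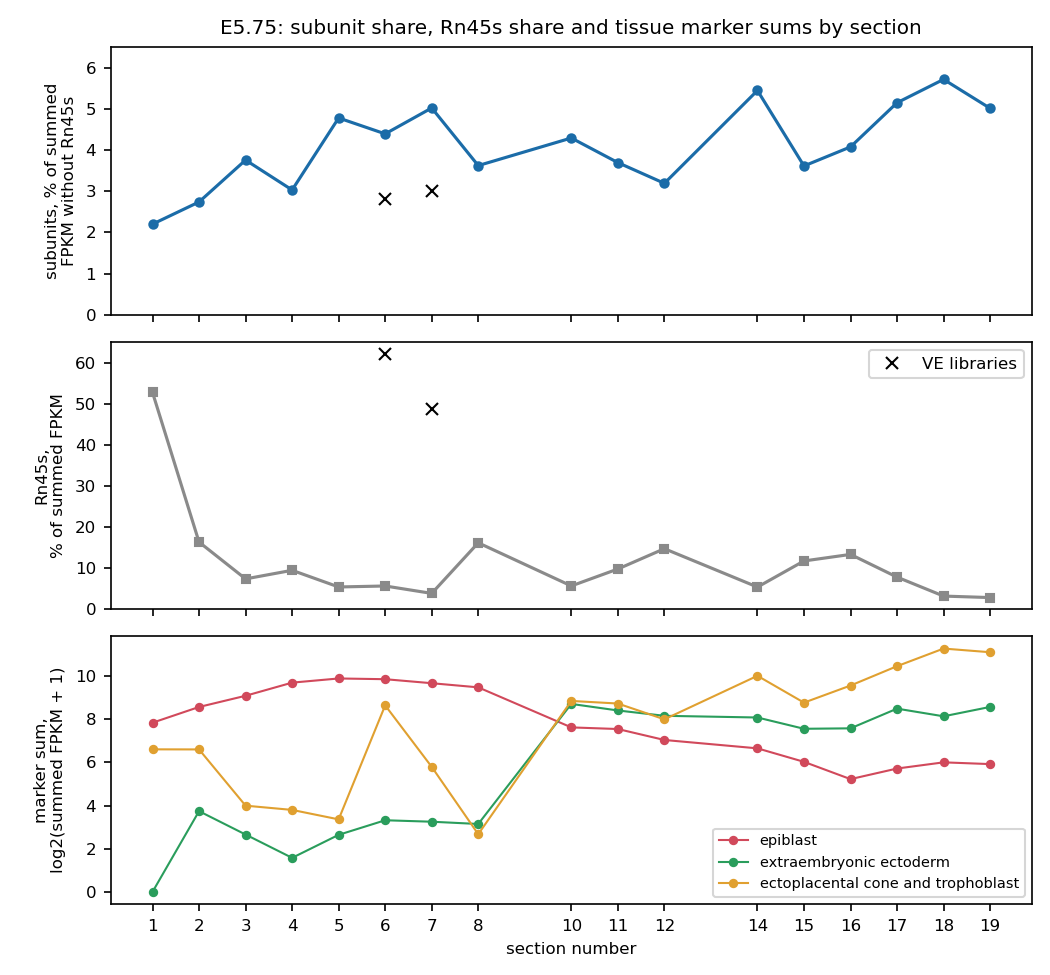
By E5.75 section (x axis): the members' share of the summed FPKM without Rn45s (%), the share of Rn45s in the summed FPKM (%), and the summed FPKM of tissue marker lists. The member share is 5.01% to 5.71% in sections 17 to 19, where Rn45s is 2.88% to 7.85% and the ectoplacental cone and trophoblast markers reach 1410 to 2484 FPKM.

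Tissue markers changed along the same sections. Of the markers of the ectoplacental cone and trophoblast, the tissue that invades the uterus, 8 of 11 rose at E5.75 with and 8 of 11 without sections 1 and 2, and their summed level was 5.39 to 399 FPKM in sections 3 to 8 and 255 to 2484 FPKM in sections 10 to 19. It was highest in sections 17, 18 and 19, at 1410, 2484 and 2207 FPKM, with 5 to 11 of the 11 detected in sections 10 to 19. Of the extraembryonic ectoderm markers 8 of 11 rose, with sums of 1.99 to 8.995 FPKM in sections 3 to 8 and 188 to 419 FPKM in sections 10 to 19. Of the epiblast markers 9 of 10 fell, with sums of 544 to 950 and 36.5 to 196 FPKM in the same ranges. Decidual markers, those of the uterine lining, rose for 4 of 8, reached 331 FPKM in section 19 and were 1.57 to 27.7 FPKM in sections 3 to 8. Visceral endoderm markers passed for 1 of 18 and blood markers for 1 of 2. The part of these tissues in the member profiles was not tested.

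The 2 VE libraries held 17 and 36 of the 80 members above 0, against 79 and 78 in the other libraries of sections 6 and 7. The median of the members above 0 was 5.88 and 5.87 in log2(FPKM + 1) in VE, against 5.91 and 6.06. These medians cover different members. Over all 80 members the median was 0 in both VE libraries, against 5.90 and 5.99 in the others. The labelled tissue was checked by its markers, whose summed level was 545 and 3817 FPKM in the VE libraries of sections 6 and 7. It was 18.6 to 93.8 FPKM in sections 3 to 8 and 451 FPKM in section 1. In the VE libraries 8 and 11 of 20 were detected, against 11 and 10 in the other libraries of sections 6 and 7. The highest of them was Apom in the first VE library and Spink3 in the second. By limma's test against those other libraries, 2 of the 12 tested rose in VE and 1 fell. Epiblast markers summed to 190 and 479 FPKM in the VE libraries. The VE library of section 6 also had 4271 FPKM of blood markers and 576 FPKM of ectoplacental cone and trophoblast markers, both above its 545 FPKM of visceral endoderm markers, and that of section 7 had 4.54 and 145 FPKM. Each held 1 of the 3 blood markers tabulated and 2 of the 11 trophoblast markers. The part of other cell types in the VE result was not tested. Against the other libraries of sections 6 and 7, 39 of 76 members fell and 0 rose in VE, and 56.6% of 6413 genes fell and 0.624% rose. Genes listed at 0 in both VE libraries entered this test only through sections 6 and 7, so they could only fall. The members' median difference was -4.17 against -2.09 over all genes tested. By complex, 21 of 36 fell in complex I, 3 of 4 in complex II, 2 of 8 in complex III, 6 of 12 in complex IV and 7 of 16 in complex V.

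Most of the members that were lower in VE were listed at 0 there. Of the 39 members, 33 were listed at 0 in both VE libraries, so the filter fixed their direction, and no fold is given for them. Of all 80 members, 38 were listed at 0 in both, 31 were above 0 in exactly one and 11 were above 0 in both. The VE libraries held 1496 and 2147 detected genes, and Rn45s made up 62.2% and 48.8% of their summed FPKM; the part of detection in the result was not tested, and a fit with detected genes as a covariate could not be made, since detection and tissue were correlated at -0.996.

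The 11 members above 0 in both VE libraries came mainly from complexes IV and V. Cox7c was at 6.46 and 7.43 in VE against 10.26 and 10.82 in sections 6 and 7, and fell by 3.595 ± 0.58 on the log2 scale (limma adjusted p 0.0174). Cox4i1 was at 4.63 and 3.89 against 7.68 and 8.19 and fell by 3.67 ± 0.85 (adjusted p 0.0386). Neither pair of VE values reached the sections' values. Cox5b, at 8.21 and 9.24 against 7.35 and 7.28, and Ndufv2, a core iron-sulfur subunit of complex I at 6.09 and 7.35 against 5.55 and 5.61, were the members above both sections in both VE libraries, and neither passed. Cox6b1, Cox8a, Atp5g3 and Atp5c1 were below both sections in both.

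Members above 0 in one VE library differed widely between the pair. Atp5j2, a small membrane subunit of complex V, was at 12.08 in the VE library of section 6 and listed at 0 in that of section 7, against 7.34 and 7.44 in the other libraries. Ndufa2, Ndufb7 and Ndufb6 of complex I were listed at 0 in the first and at 10.35, 10.03 and 9.90 in the second. Through Atp5j2 and Atp5k, complex V held 91.5% of the members' summed FPKM in the VE library of section 6, against 12.97% in that of section 7, where complex I held 55.8%. Without the VE library of section 6, limma called 70 of 76 members, 59 lower and 11 higher, and 73.7% of all genes were lower and 11.4% higher. Without that of section 7 it called 73 members, 68 lower and 5 higher, and 82% of genes were lower and 8.98% higher. The lone library is then assumed to vary like the others. Without the other library of section 6 or that of section 7, it called 0 of 42 members and 0.0817% and 0.0811% of genes.

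The VE call also depended on what it was set against. Against all of sections 3 to 8, 44 of 80 members fell and 1 rose, and 25.1% of 8654 genes fell and 1.43% rose. Here too, genes listed at 0 in both VE libraries could only fall. Against the low-detection sections 1 and 2, limma called 0 of 40 members and 0 of 2695 genes, 6 members (15%) and 570 genes (21.2%) had an unadjusted p under 0.05, and the members' median difference was -1.29 against -0.94 over all genes; this comparison was added after the data were seen. After quantile normalisation limma called 0 of 76 members and 0 of 6413 genes, and 43 members (56.6%) and 3090 genes (48.2%) had an unadjusted p under 0.05.

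Other genes of mitochondrial metabolism were read from lists chosen by function, with each list's share set beside the 18.9% of all genes that rose at E5.75. Of subunits and partners that the symbol rule misses, 2 of 5 rose, namely Cyc1, the cytochrome c1 of complex III, by 3.32 ± 0.83 (limma adjusted p 0.00726) and Usmg5, a small subunit of complex V, by 5.11 ± 1.53 (adjusted p 0.0208). Of assembly factors 6 of 29 rose, among them Ndufaf2 for complex I (4.03 ± 0.88, adjusted p 0.00292), Lrpprc, which stabilises mitochondrial mRNA (2.56 ± 0.70), and the copper chaperone Cox17 (4.90 ± 1.43). Of nuclear regulators 5 of 17 rose, among them Polg, the mitochondrial DNA polymerase (4.22 ± 0.62, adjusted p 5.83e-05), Myc (3.29 ± 0.85) and the receptor Esrra (2.21 ± 0.68).

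Genes that supply substrates were counted in the same way. Of the citric acid cycle and pyruvate dehydrogenase, 11 of 24 rose, with Pdhb, the E1 beta subunit of pyruvate dehydrogenase, at 4.53 ± 0.82 (limma adjusted p 0.000561), and Idh3b and Dlst at 3.87 ± 0.84 and 3.28 ± 0.76. Of genes for lactate, pyruvate and glucose use, 4 of 18 rose, among them the lactate transporter Slc16a1 (3.57 ± 0.64), the glucose transporter Slc2a1 (3.67 ± 0.84) and the glycolytic enzyme Pfkp (3.20 ± 0.77). Of carriers and outer membrane channels, 4 of 14 rose, with Slc25a4, the ADP/ATP carrier that exports ATP from the matrix, at 5.95 ± 0.79 (adjusted p 2.02e-05), and Vdac1 and Vdac2 at 2.94 ± 0.87 and 2.90 ± 0.90.

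Of the import machinery 11 of 24 rose, with Pam16 (5.42 ± 0.98), Timm8b (5.27 ± 1.19) and Timm10 (4.66 ± 1.06). Of mitochondrial ribosomal proteins 26 of 75 rose, with Mrpl42 (5.95 ± 1.24), Mrps18c (5.08 ± 1.08) and Mrpl30 (4.50 ± 0.96). Of antioxidant enzymes 8 of 11 rose, with Prdx3 (3.51 ± 0.65), Gpx4 (3.40 ± 0.65) and Txn1 (4.78 ± 1.21). Without sections 1 and 2, where 9.38% of all genes rose, the counts were 1 of 5 for the missed subunits, 1 of 29 for assembly factors, 1 of 17 for regulators, 4 of 24 with 1 falling for the citric acid cycle and pyruvate dehydrogenase, 4 of 18 with 1 falling for glucose use, 1 of 14 for carriers, 3 of 24 for import, 7 of 75 for the mitochondrial ribosome and 3 of 11 for antioxidant enzymes. With detected genes as a covariate, where 3.63% of all genes rose, they were 2 of 18 for glucose use, 1 of 17 for regulators, 1 of 14 for carriers, 1 of 11 for antioxidant enzymes and 0 for the other 5 lists, and none fell.

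At E5.5, where 28.3% of all genes rose, 5 of 5 missed subunits, 9 of 25 assembly factors, 11 of 20 citric acid cycle and pyruvate dehydrogenase genes, 3 of 16 regulators, 7 of 12 carriers, 17 of 24 import genes, 53 of 75 mitochondrial ribosomal proteins, 9 of 18 glucose genes and 9 of 11 antioxidant enzymes rose with all sections in the fit, and none fell. In sections 6 to 10 alone, and with detected genes as a covariate, limma called 0 genes of these 9 lists and 0 of all genes. The share of mitochondrial ribosomal proteins that rose was below that of the members, 62 of 79, and no test compared the lists. At E5.25, 1 of 24 import genes and 1 of 73 mitochondrial ribosomal proteins rose, and no gene of the other lists of mitochondrial metabolism did.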

How the data were processed

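Among the tools listed in the submitters' processing notes are Cufflinks 2.0.2 and TopHat2 2.0.4; the build listed is mm10, and the annotation is not given in the sources used here. Each stage has its own deposited table of log2 FPKM, read here as log2(FPKM + 1) from the table names and the values. No value column was left unused. At E5.5 parts A and B of a section share 1 deposited value, except section 10, whose parts were averaged; how the others were joined is not given in the sources used here, and for the second part of section 10 the title and the source name disagree on the number. Depth is unknown, so the number of sections limits the precision.

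Genes that reached 1 FPKM in 2 or more columns of a fit entered a 2-sided test by limma 3.58.1 under R 4.3.3, with a moderated variance trend, on the whole table of a stage, with Benjamini-Hochberg adjustment at 0.05; the code was tested on simulated data. The comparisons were a line in section number per stage, E5.75 sections 10 to 19 against 3 to 8, and VE against the other libraries of sections 6 and 7. Those 2 pairs share section numbers, which are positions and not donors. Alternatives changed the pseudocount (0.1, 5), the filter, the scaling, the trend, the low-detection columns, a covariate of detected genes, and 1 column at a time. Full statistics went to the 3 members of each complex with the smallest p per stage, to members that fell, to the paralogues, and to up to 3 genes of each list with the smallest p at E5.75; for VE, members were named by their values. The members and lists were chosen with earlier results of these data known. Marker lists covered visceral endoderm, epiblast, ectoplacental cone and trophoblast, extraembryonic ectoderm, blood and leukocytes, and decidua. 1 member enters the counts and is not reported here by itself. Motifs and pseudogene names came from RefSeq tables. Other steps used Python 3.11.15, pandas 2.3.3 and matplotlib 3.10.9.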

Additional observations from a re-analysis of the deposited data

How the results depend on the processing

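The counts of members past the threshold depended on the processing at every stage. At E5.25 (4 members) the count was 33 with a pseudocount of 0.1, 35 with a filter at an FPKM of 5 and 18 without the trend. In these settings 38.4%, 41.9% and 30.8% of all genes had an unadjusted limma p under 0.05, against 63.2%, 63% and 61.8% of the members. It was 0 with a pseudocount of 5, without a filter, after quantile normalisation, with detected genes as a covariate and without columns under 5000 genes. Leaving out 1 section at a time gave 0 to 30. At E5.5 (63) it was 0 with the covariate, 0 without columns under 5000 genes, 0 with both and 29 without columns under 4500 genes, and leaving out 1 section gave 61 to 68. At E5.75 (33) it was 19 on a common sum, 15 after quantile normalisation, 0 with the covariate, 12 without columns under 5000 genes and 1 with both, and leaving out 1 section gave 21 to 39. For sections 10 to 19 against 3 to 8 (0) it was 2 with a filter at an FPKM of 5 and 2 after quantile normalisation. In these settings 29.5% and 23.8% of all genes had an unadjusted limma p under 0.05, against 16.9% and 18.8% of the members. Leaving out 1 section gave 0 to 3. For VE (39) it was 0 after quantile normalisation and 0 against sections 1 and 2, and leaving out 1 library gave 0 to 73. The section number as a replicate block gave 35 for VE. In that fit 62.8% of all genes had an unadjusted limma p under 0.05, against 51.3% of the members. The section 6 libraries' deviations from their group means had a correlation of 0.000773, and with 2 pairs this does not show whether the libraries pair. No paired analysis was possible for the lines, because each section was fitted once.

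Reversals are listed here, in log2 units, only for members given full statistics and where the main or the alternative fit passed the threshold. Reversals that passed in neither fit are left out. Ndufa1 at E5.25 is an example, at 7.42 with all sections and -2.11 without columns under 5000 genes. At E5.25 without columns under 5000 genes: Cox8a -0.36, Ndufb8 -1.34, Ndufb9 -1.22 and Uqcr11 -0.56. At E5.5 with the covariate: Atp5d -1.67, Atp5e -1.18, Atp5g3 -0.55, Cox7b2 3.52, Ndufb10 -0.29, Uqcr11 -0.12 and Uqcrc1 -0.73. At E5.5 without columns under 5000 genes, and then with the covariate too: Atp5d -0.23 and -0.23, Atp5l -0.078 and -0.039, Ndufa6 -0.31 and -0.25, and Ndufc2 -0.14 and -0.074. At E5.75 with the covariate: Ndufa13 -0.11, Ndufb10 -0.51 (and -0.061 without columns under 5000 genes), Ndufb5 -0.052 and Ndufs5 -0.28. In VE, leaving out 1 library at a time gave -6.67 to 1.02 for Atp5g1, -7.39 to 4.69 for Atp5j2, -6.71 to 2.26 for Cox7b, -6.41 to 3.49 for Ndufb6 and -3.48 to 2.32 for Uqcrc1. Against sections 1 and 2, Cox7c had 2.62. The cause was not tested. The VE fit with the covariate could not be made (correlation of detection and tissue -0.996), and at E5.25 no fit with the covariate was run without low-detection columns, since 3 sections leave no residual degree of freedom. The limits of 4500 genes and VE against sections 1 and 2 were chosen after seeing the data.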
